A study of Homo sapiens with 8 samples.

Results

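NF-kB is a family of transcription factors built from the subunits p50, p52, RelA, RelB and c-Rel. Inhibitor proteins hold these dimers in the cytoplasm until a receptor signal activates kinases that release them, and the dimers then switch on chemokines, cytokines, adhesion molecules and their own inhibitors. Thyroid epithelial cells can secrete chemokines such as CXCL8 and cytokines such as IL6. T3, the active thyroid hormone, acts through nuclear receptors that bind DNA near target genes.

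The 40 genes described here were taken from a list of symbols: 9 chemokines, 9 interleukins and other cytokines, 5 NF-kB subunits, 12 feedback genes and kinases, and 5 other targets. All 40 had a row among the 56832 gene rows of the count tables. Of these, 33 passed the filter on low counts and were tested. The 7 others (CXCL5, CXCL6, CX3CL1, CCL20, IL1A, IL1B and PTGS2) were too low to test.

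Total RNA was sequenced after ribosomal RNA depletion from Nthy-ORI, an immortalised human thyroid epithelial cell line. All cells were first starved of hormone for 24 h in medium without phenol red and with charcoal-stripped serum. They then received T3 at 10 nM for 6 h, vehicle (NaOH) for 6 h, T3 at 10 nM for 24 h, or vehicle for 24 h, with 2 libraries per group. The labels do not say whether the 2 libraries of a group are separate cultures. A p-value here reflects only how far these libraries spread, which may be technical.

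Gene counts per library ranged from 3043258 to 5450752 in T3 at 6 h and from 2517983 to 3428165 in vehicle at 6 h. They ranged from 6057464 to 8201606 in T3 at 24 h and from 3957592 to 6743039 in vehicle at 24 h. Levels are counts scaled to library size by the TMM method (CPM), on which scale 3 counts over both libraries of a group correspond to between 0.199 and 0.521 CPM. Reads that did not align uniquely were 63.6% and 61.2% in T3 at 6 h, 67.4% and 62.6% in vehicle at 6 h, 47.6% and 49.97% in T3 at 24 h, and 57.1% and 56.3% in vehicle at 24 h. This share moved with time and, at 24 h, with treatment, and its part in the results was not tested. KLF9, a direct T3 target, checked the labels. It stood at 13.4 and 14.1 CPM in T3 at 6 h, against 0.904 and 0.818 CPM in vehicle at 6 h. In the libraries labelled T3 at 24 h it stood at 2.79 and 3.35 CPM, against 20.8 and 31.4 CPM in those labelled vehicle at 24 h. HR, another direct T3 target, had 116 and 102 CPM in T3 at 6 h and 68.4 and 58.5 CPM in vehicle at 6 h. It had 0.310 and 0.116 CPM in the libraries labelled T3 at 24 h. Those labelled vehicle at 24 h had 4.29 and 3.89 CPM of HR. Both genes thus went against the labels at 24 h, and every direction given for T3 at 24 h is that of the libraries as labelled.

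The cell type was checked against marker lists. PAX8, a thyroid transcription factor, was at 4.34 and 4.02 CPM in T3 at 6 h, 9.95 and 13.5 CPM in vehicle at 6 h, 108 and 117 CPM in T3 at 24 h and 114 and 155 CPM in vehicle at 24 h. TG and TSHR, which mark differentiated thyroid cells, stayed below 1 CPM in every library. The 9 immune markers summed to 50.7 to 58.6 CPM over the 6 h libraries and to 2.94 to 4.07 CPM over the 24 h libraries. CSF1R accounted for most of the 6 h sum, and CD3E was at 0 in every library. The 6 fibroblast markers, mostly COL1A1, summed to 102 to 109 CPM in T3 at 6 h and 195 to 197 CPM in vehicle at 6 h. They summed to 608 to 704 CPM in T3 at 24 h and 1123 to 1227 CPM in vehicle at 24 h. DCN and FAP went the other way from that sum. They had 15 and 16 counts in T3 at 6 h and 18 and 21 counts in vehicle at 6 h. Both were at 0 in every 24 h library. The 5 epithelial markers, mostly KRT8 and KRT18, summed to 468 to 482 CPM in T3 at 6 h, 469 to 528 CPM in vehicle at 6 h, 214 to 218 CPM in T3 at 24 h and 245 to 304 CPM in vehicle at 24 h. The 4 endothelial and 3 C-cell markers summed to at most 1.27 and 0.810 CPM in any library, with CDH5 and CALCA at 0 throughout. The part of these shifts in the results was not tested. In bulk RNA, fewer cells expressing a gene and less of its RNA per cell cannot be told apart.

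The start regions of 4 chemokines and of the 2 genes that rose with T3 at 6 h are shown because CXCL1 and CXCL2 moved opposite to REL and TNFAIP3 although all 4 hold a kB match. Each sequence is the 120 bases before the annotated start in RefSeq (GRCh38.p14), 5′ to 3′ on the gene's strand, with capitals where the kB consensus, the NF-kB binding motif, matched on either strand.
CXCL1 (chr4:73869273-73869392, plus strand): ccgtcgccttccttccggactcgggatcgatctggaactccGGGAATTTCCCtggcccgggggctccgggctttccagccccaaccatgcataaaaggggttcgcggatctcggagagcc
CXCL2 (chr4:74099196-74099315, minus strand): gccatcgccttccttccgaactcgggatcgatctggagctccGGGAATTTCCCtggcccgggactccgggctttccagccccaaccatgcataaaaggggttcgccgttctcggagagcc
CXCL3 (chr4:74038690-74038809, minus strand): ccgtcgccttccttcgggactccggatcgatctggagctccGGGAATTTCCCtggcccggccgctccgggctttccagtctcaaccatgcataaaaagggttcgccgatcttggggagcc
CXCL8 (chr4:73740449-73740568, plus strand): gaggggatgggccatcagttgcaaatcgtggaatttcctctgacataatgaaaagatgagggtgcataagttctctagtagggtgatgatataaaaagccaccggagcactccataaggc
REL (chr2:60881454-60881573, plus strand): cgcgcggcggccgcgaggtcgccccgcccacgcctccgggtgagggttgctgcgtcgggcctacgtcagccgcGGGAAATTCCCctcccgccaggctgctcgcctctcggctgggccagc
TNFAIP3 (chr6:137867139-137867258, plus strand): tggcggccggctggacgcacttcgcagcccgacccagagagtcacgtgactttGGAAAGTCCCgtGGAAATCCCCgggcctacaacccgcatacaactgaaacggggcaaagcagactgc

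The first 3 chemokine promoters were near copies of each other. CXCL1 and CXCL2 shared 113 of the 120 bases (94.2%), CXCL1 and CXCL3 shared 109 (90.8%), and CXCL2 and CXCL3 shared 108 (90%). CXCL8 matched CXCL1 at 65 of 120 bases (54.2%). Its window held no full match to the pattern searched, GGGRNNYYCC (R is A or G, Y is C or T, N is any base). The CXCL8 window does hold tggaatttcc, which differs from that pattern at 1 base. In CXCL1 and CXCL3 the match began 79 bases before the start, in CXCL2 78 bases before it and in REL 47 bases before it. TNFAIP3 held a pair of matches, 67 and 55 bases before its start. The 6 CXCL genes of the list lie in 1 stretch of chromosome 4, between 73740506 at CXCL8 and 74099293 at CXCL2 (GRCh38, GENCODE 29).

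Promoters from 250 bases before to 50 bases after the start were found for 32 of the 40 genes. Only 1 start per gene was scanned, so a gene without a match may hold one at another start. For some genes, such as TNIP1 and SOD2, the window lay inside the annotated gene. CX3CL1, CCL2, IL18, LIF, CSF1, RELB, NFKBIE and IER3 were not matched. The kB consensus matched in 14 of the 32, against 10.8% of all 27303 promoters scanned. These were CXCL1, CXCL2, CXCL3, CXCL5, CXCL6, CCL20, IL6, IL32, NFKB1, REL, NFKBIA, NFKBIZ, TNFAIP3 and BIRC3. The AP-1 motif TGANTCA matched in 3 of the 32 (CXCL8, IL1A and IL11), against 7.76% of all promoters. The receptor half-site AGGTCA matched in 4 of the 32 (CCL20, IL11, NFKBIZ and TNFAIP2), against 13.9% of all promoters. Both strands were searched for each motif, and a match is a run of letters, not a measured binding site.

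With T3 for 6 h, the chemokines CXCL1, CXCL2 and CXCL8 and the adhesion molecule ICAM1 were lower, and the genes of c-Rel and A20 were higher. Of the 33 genes tested, 8 fell (CXCL1, CXCL2, CXCL8, CSF1, NFKB2, TNIP1, ICAM1 and IER3), which is 24.2%, against 3.86% of all 14611 genes tested. The 2 that rose, REL and TNFAIP3, made up 6.06% of those tested, against 3.78% of all genes. The median log2 fold change was -0.34 for the 33 genes and -0.02 for all genes. A gene is said to rise or fall where edgeR's quasi-likelihood test gave a Benjamini-Hochberg adjusted p under 0.05 over all genes tested. A further 23 of the 33 missed that threshold.

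CXCL8, the neutrophil-attracting chemokine interleukin-8, was at 7.60 and 6.44 CPM in T3 at 6 h, against 17.2 and 23.3 CPM in vehicle at 6 h. It fell by 1.53 on the log2 scale (SE 0.23, adjusted p = 0.000997, edgeR). CXCL1, a neutrophil chemokine that binds CXCR2, was at 1.09 and 0.805 CPM in T3 at 6 h, against 5.43 and 7.77 CPM in vehicle at 6 h. The T3 libraries held 3 and 4 counts of CXCL1, so its fold is poorly fixed (log2 fold change -2.80, SE 0.76, adjusted p = 0.0416, edgeR). CXCL2, a close paralogue of CXCL1, was at 3.26 and 3.62 CPM in T3 at 6 h, against 10.9 and 15.1 CPM in vehicle at 6 h. Its log2 fold change was -1.87 (SE 0.36, adjusted p = 0.00514, edgeR). For all 3 genes both T3 libraries lay below both vehicle libraries. With 2 libraries per group, a lack of overlap says little alone, here and below. The share of all genes without overlap was not counted. CXCL3 was at 1.09 and 1.01 CPM in T3 at 6 h, against 1.51 and 2.86 CPM in vehicle at 6 h, and missed the threshold (adjusted p = 0.401, edgeR). The fifth chemokine tested, CCL2, which attracts monocytes, had 2 counts in T3 at 6 h and 1 count in vehicle at 6 h.

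The CXCL1, CXCL2 and CXCL3 transcripts resemble each other, and reads from one can be assigned to another or dropped. Of all 50-base stretches, CXCL1 shared 4.81%, CXCL2 12.5% and CXCL3 6.01% with another of these chemokines, while CXCL8 shared none. The values of these paralogues are therefore less certain individually than that of CXCL8.

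Among the cytokines, CSF1, the growth factor of macrophages, was the 1 of 7 tested that fell. It was at 2.17 and 2.01 CPM in T3 at 6 h, against 5.73 and 7.37 CPM in vehicle at 6 h, with no overlap (log2 fold change -1.63, SE 0.38, adjusted p = 0.0172, edgeR). IL6, an inflammatory interleukin, was at 5.43 and 4.02 CPM in T3 at 6 h, against 9.04 and 9.82 CPM in vehicle at 6 h, and just missed the threshold (adjusted p = 0.0554, edgeR). IL11 was at 4.34 and 5.83 CPM in T3 at 6 h and 7.23 and 9.82 CPM in vehicle at 6 h (adjusted p = 0.298, edgeR). LIF was at 7.24 and 6.84 CPM in T3 at 6 h, against 13.9 and 8.18 CPM in vehicle at 6 h (adjusted p = 0.169, edgeR). For IL6, IL11 and LIF the groups did not overlap, but the differences were not large enough against the spread of the fit. IL18 and IL32, the most abundant cytokines per length at 6 h, had log2 differences of 0.28 and 0.21 and did not pass.

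**Figure D1:**
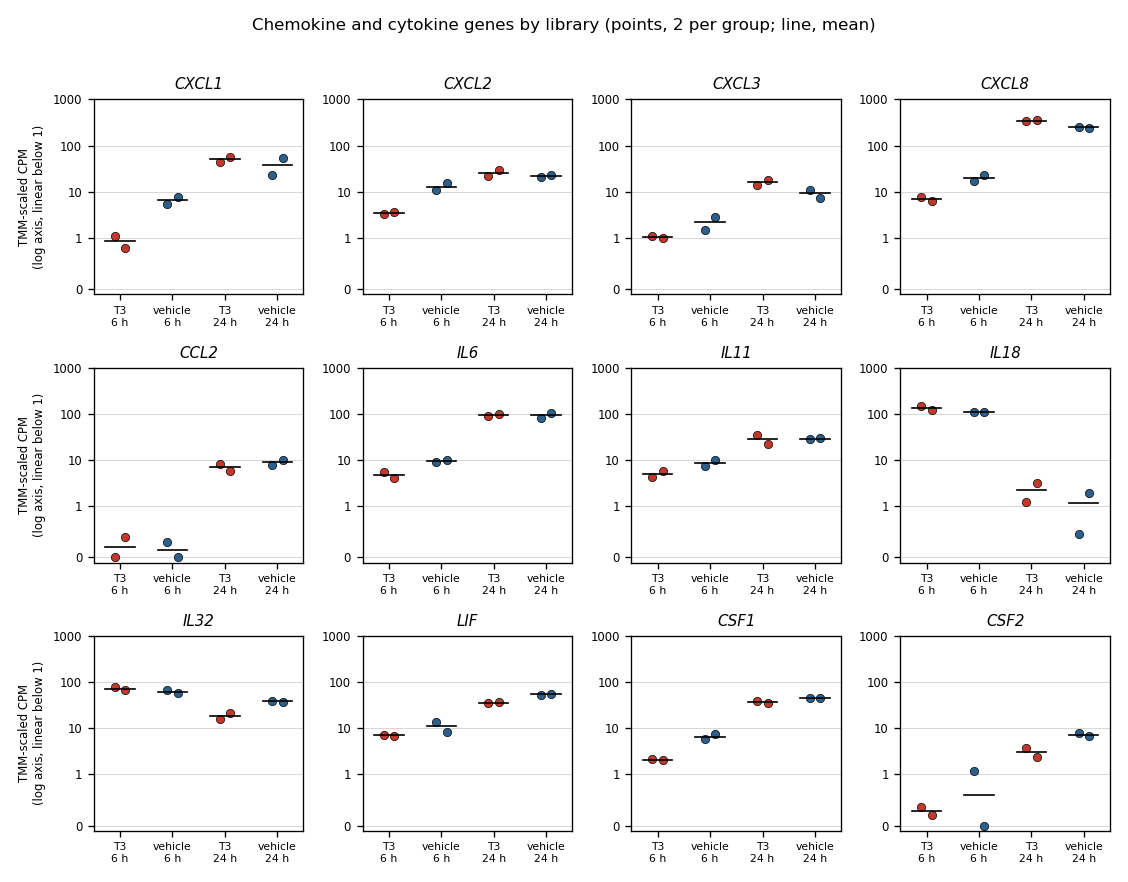
TMM-scaled CPM (log axis, linear below 1) of 12 chemokine and cytokine genes in each library, 2 points per group in T3 (red) and vehicle (blue) at 6 h and 24 h, with the mean as a line. CXCL1, CXCL2, CXCL8 and CSF1 lie lower in T3 than in vehicle at 6 h. In both treatments 10 of the 12 genes shown, all but IL18 and IL32, lie higher at 24 h than at 6 h. Of these, CCL2, CXCL3 and CSF2 passed the filter on low counts only through 24 h libraries.

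The subunits split. REL, which encodes c-Rel, was at 38.0 and 32.2 CPM in T3 at 6 h, against 16.0 and 18.8 CPM in vehicle at 6 h. It rose by 1.01 on the log2 scale (SE 0.22, adjusted p = 0.0106, edgeR). NFKB2, the precursor of p52, was at 149 CPM in both T3 libraries, against 225 and 190 CPM in vehicle at 6 h (log2 fold change -0.48, SE 0.13, adjusted p = 0.0304, edgeR). In neither gene did the groups overlap. RELB, the partner of p52, was at 38.7 and 40.6 CPM in T3 at 6 h, against 63.9 and 55.7 CPM in vehicle at 6 h, and missed the threshold (adjusted p = 0.0693, edgeR). NFKB1 and RELA, which encode the classical p50 and p65 subunits, had log2 differences of 0.15 and -0.11 and did not pass.

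Of the 12 feedback genes and kinases, 1 rose and 1 fell. TNFAIP3 encodes A20, a ubiquitin-editing enzyme that restrains NF-kB signalling. It was at 172 and 187 CPM in T3 at 6 h, against 112 and 111 CPM in vehicle at 6 h (log2 fold change 0.69, SE 0.14, adjusted p = 0.00613, edgeR). TNIP1, an A20-binding partner, was at 129 and 114 CPM in T3 at 6 h, against 187 and 169 CPM in vehicle at 6 h (log2 fold change -0.56, SE 0.13, adjusted p = 0.0153, edgeR). A20 and its partner thus moved in opposite directions, without overlap between groups in either. NFKBIA, the main inhibitor IkB-alpha, was at 112 and 109 CPM in T3 at 6 h, against 90.7 and 82.7 CPM in vehicle at 6 h (adjusted p = 0.123, edgeR). The 9 remaining genes of this class had log2 differences between -0.74 for NFKBIE and 0.32 for TRAF1, none of them past the threshold.

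ICAM1, an adhesion molecule that leukocytes bind, fell most among the targets. It was at 1.81 and 0.805 CPM in T3 at 6 h, against 7.84 and 5.73 CPM in vehicle at 6 h (log2 fold change -2.54, SE 0.46, adjusted p = 0.00398, edgeR). The T3 libraries held 5 and 4 counts. IER3, an early-response gene linked to cell survival, was at 33.3 and 35.4 CPM in T3 at 6 h, against 53.4 and 54.4 CPM in vehicle at 6 h (log2 fold change -0.64, SE 0.17, adjusted p = 0.0327, edgeR). The groups did not overlap in either gene. TNFAIP2 and SOD2 had log2 differences of -0.29 and -0.13 and did not pass.

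**Figure D2:**
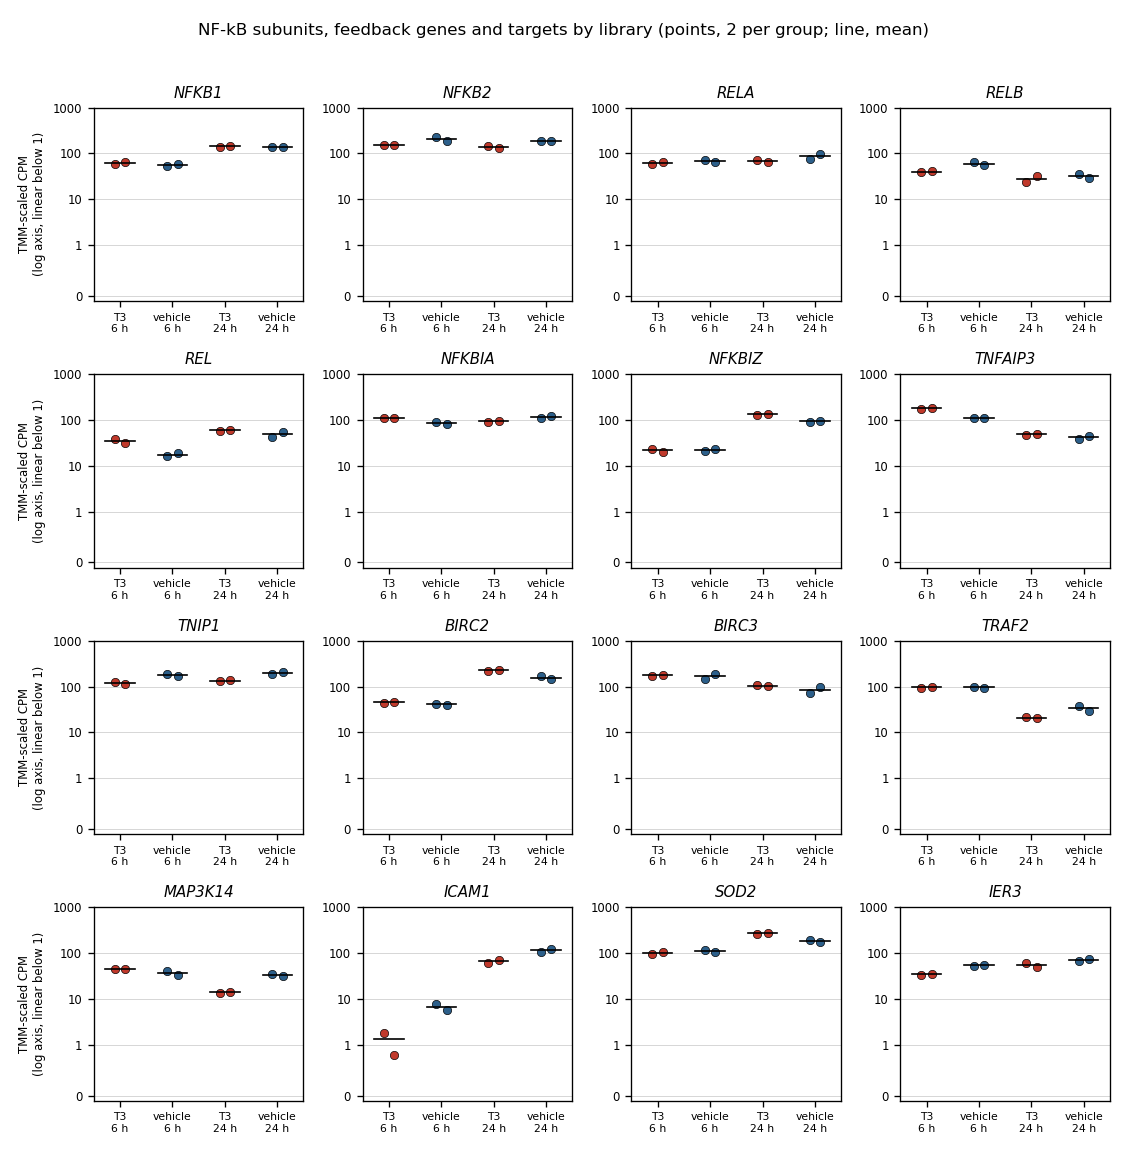
TMM-scaled CPM (log axis, linear below 1) of 16 subunit, feedback and target genes in each library, 2 points per group in T3 (red) and vehicle (blue) at 6 h and 24 h, with the mean as a line. At 6 h REL and TNFAIP3 lie higher in T3 than in vehicle and ICAM1 lower, and MAP3K14 is lowest in the 2 libraries labelled T3 at 24 h, at 13.6 and 14.3 CPM.

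The calls at 6 h were counted by whether the promoter held a kB match. Among the 11 tested genes with a match, 2 rose (REL and TNFAIP3) and 2 fell (CXCL1 and CXCL2). Among the 15 tested genes that were scanned and had no full match to the pattern, 0 rose and 4 fell (CXCL8, ICAM1, NFKB2 and TNIP1). Only 1 start per gene was scanned, and the TNIP1 window lay inside the annotated gene, so a lack of match holds for the scanned window alone. No test was made on these counts.

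Of the 8 genes that fell at 6 h, 5 were far below their 24 h level and 3 were nearer to it. In T3 at 6 h, CXCL1 was at 2.13% of its mean 24 h level, against 14.9% in vehicle at 6 h. CXCL8 was at 2.36% in T3 at 6 h and 6.79% in vehicle at 6 h, and ICAM1 at 1.45% in T3 and 7.51% in vehicle. CSF1 was at 5.14% in T3 and 16.1% in vehicle, and CXCL2 at 14.3% in T3 and 54.1% in vehicle. NFKB2 was at 93.2% in T3 and 130% in vehicle, TNIP1 at 72.8% in T3 and 106% in vehicle, and IER3 at 54.4% in T3 and 85.4% in vehicle. Genes that missed the threshold could be as low, such as IL6 at 5.06% in T3 and 10.1% in vehicle. PAX8, which is no NF-kB gene, showed the same order, at 3.39% in T3 at 6 h and 9.51% in vehicle at 6 h. Its part in the result was not tested.

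Of the 10 genes called at 6 h, CXCL8 alone passed with each library left out and under every other alternative run. The count of genes that fell was 2 without T3 replicate 1, 1 without T3 replicate 2, 2 without vehicle replicate 1 and 4 without vehicle replicate 2. Of these 4 settings, REL and TNFAIP3 passed only without vehicle replicate 2. In the same 4 settings, smaller shares of all genes rose and fell than with all 8 libraries. After removal of each library's trend with GC content and length, TNFAIP3 still rose, and CXCL2, CXCL8 and ICAM1 still fell. IL6 then passed as lower (log2 fold change -1.22, adjusted p = 0.0474, edgeR). Under that correction 1.21% of all annotated genes rose and 2.29% fell.

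**Figure D3:**
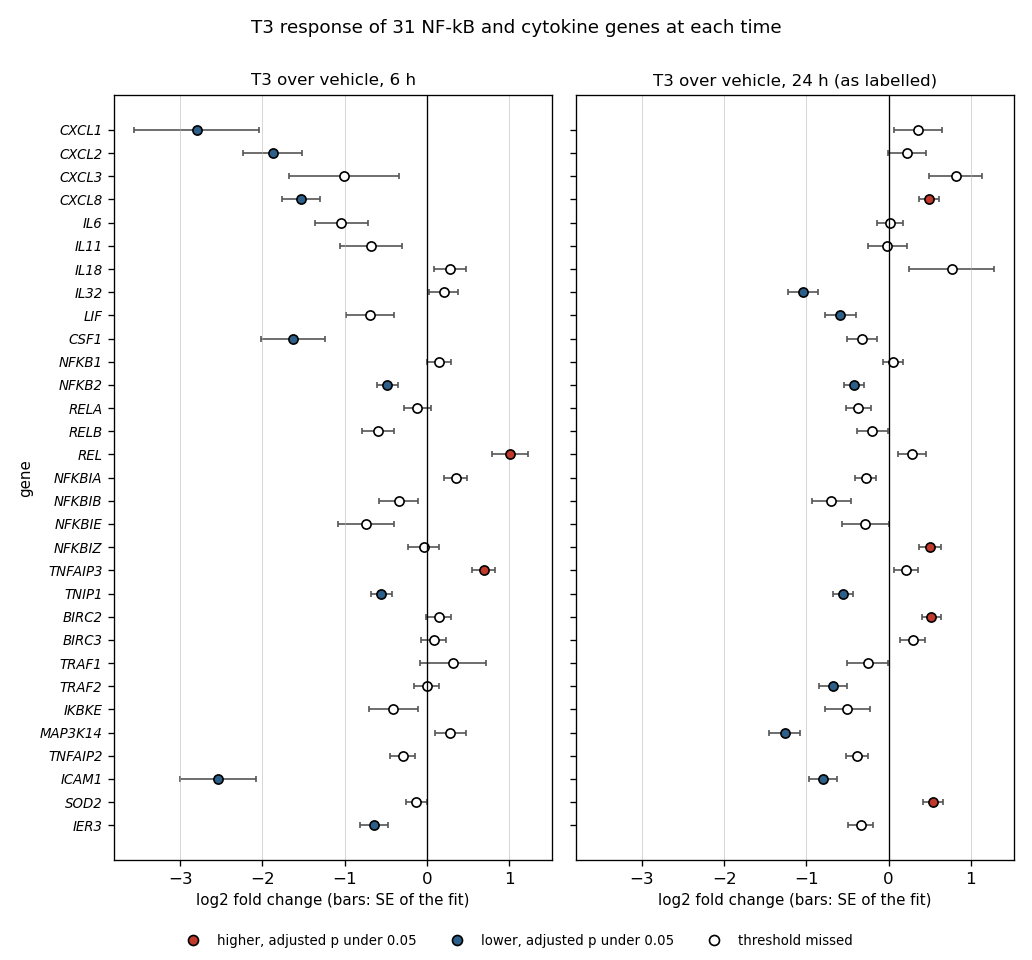
Log2 fold change of T3 over vehicle at 6 h (left) and 24 h (right, as labelled) for 31 of the 33 genes tested, with the SE of the fit as bars; red and blue points passed an adjusted p of 0.05 and white points did not. CCL2 and CSF2 are left out because of their counts of 1 to 4 in a 6 h group, and CXCL8 lies at -1.53 on the left and 0.49 on the right.

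In the libraries labelled T3 at 24 h, the chemokine CXCL8, the anti-apoptotic gene BIRC2 and the superoxide dismutase SOD2 were higher, and the alternative-pathway kinase MAP3K14 and the cytokine IL32 were lower. Of the 33 genes tested, 7 fell (IL32, LIF, NFKB2, TNIP1, TRAF2, MAP3K14 and ICAM1), which is 21.2%, against 7.75% of all genes. The 4 that rose (CXCL8, BIRC2, NFKBIZ and SOD2) made up 12.1%, against 5.58% of all genes. The median log2 fold change was -0.28 for the 33 genes and -0.01 for all genes.

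MAP3K14 encodes NIK, the kinase that starts the alternative NF-kB pathway. It was at 13.6 and 14.3 CPM in the libraries labelled T3 at 24 h, against 35.5 and 32.1 CPM in vehicle at 24 h (log2 fold change -1.27, SE 0.19, adjusted p = 0.00114, edgeR). TRAF2, an adaptor that with BIRC2 and BIRC3 marks NIK for destruction, was at 21.2 and 20.5 CPM in T3 at 24 h, against 37.5 and 29.6 CPM in vehicle at 24 h (log2 fold change -0.68, SE 0.17, adjusted p = 0.0146, edgeR). BIRC2, its ubiquitin ligase partner cIAP1, went the other way. It was at 217 and 232 CPM in T3 at 24 h, against 166 and 147 CPM in vehicle at 24 h (log2 fold change 0.52, SE 0.12, adjusted p = 0.0107, edgeR). NFKB2, the precursor that NIK signalling processes to p52, was at 144 and 129 CPM in T3 at 24 h, against 184 and 182 CPM in vehicle at 24 h (log2 fold change -0.42, SE 0.12, adjusted p = 0.0317, edgeR). Its direction turned with the GC and length correction (0.093, adjusted p = 0.699, edgeR), and its call was lost in 6 of 14 alternatives. The groups did not overlap in any of these 4 genes. BIRC3 and RELB, of the same pathway, had log2 differences of 0.29 and -0.20 and did not pass.

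Among the cytokines, IL32 was at 16.0 and 20.8 CPM in T3 at 24 h, against 39.5 and 36.8 CPM in vehicle at 24 h (log2 fold change -1.04, SE 0.18, adjusted p = 0.00223, edgeR). LIF, a cytokine of the IL6 family, was at 34.9 and 36.6 CPM in T3 at 24 h, against 53.1 and 54.3 CPM in vehicle at 24 h (log2 fold change -0.59, SE 0.19, adjusted p = 0.0470, edgeR). Both genes had groups without overlap. IL6 itself was at 91.2 and 97.4 CPM in T3 at 24 h and 80.0 and 105 CPM in vehicle at 24 h, so the groups overlapped.

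Of the 5 chemokines tested, CXCL8 alone passed. It was at 334 and 363 CPM in T3 at 24 h, against 250 and 245 CPM in vehicle at 24 h (log2 fold change 0.49, SE 0.12, adjusted p = 0.0161, edgeR). CXCL3 was at 13.8 and 18.0 CPM in T3 at 24 h, against 11.1 and 7.33 CPM in vehicle at 24 h (adjusted p = 0.104, edgeR). CXCL1 was at 44.7 and 55.6 CPM in T3 at 24 h and 22.6 and 54.3 CPM in vehicle at 24 h, so its groups overlapped.

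ICAM1 was at 60.2 and 71.8 CPM in T3 at 24 h, against 104 and 125 CPM in vehicle at 24 h (log2 fold change -0.80, SE 0.17, adjusted p = 0.00604, edgeR). SOD2, a mitochondrial superoxide dismutase, was at 260 and 279 CPM in T3 at 24 h, against 195 and 176 CPM in vehicle at 24 h (log2 fold change 0.54, SE 0.12, adjusted p = 0.00821, edgeR). NFKBIZ, a nuclear inhibitor-like cofactor that promotes some NF-kB targets, was at 128 and 136 CPM in T3 at 24 h, against 90.4 and 94.9 CPM in vehicle at 24 h (log2 fold change 0.51, SE 0.13, adjusted p = 0.0207, edgeR). TNIP1 was at 135 and 136 CPM in T3 at 24 h, against 189 and 208 CPM in vehicle at 24 h (log2 fold change -0.56, SE 0.12, adjusted p = 0.00799, edgeR). In all 4 genes the groups did not overlap. REL and TNFAIP3, which rose at 6 h, had log2 differences of 0.28 and 0.21 at 24 h and did not pass.

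The 24 h calls lay apart by base composition. The 4 genes that rose had a transcript GC content between 35.9% and 48.5%, and the 7 that fell between 57.4% and 61.6%. Over all annotated genes, the median log2 fold change at 24 h was 0.32 in the fifth of genes lowest in GC and -0.53 in the fifth highest in GC. With that trend and the trend with length removed from each library, MAP3K14 alone still fell and 0 of the 33 rose, while 0.571% of all 12600 annotated genes fell and 0.468% rose. The log2 fold change of CXCL8 was then 0.03 (adjusted p = 0.923, edgeR) and that of BIRC2 0.19 (adjusted p = 0.442, edgeR). NFKBIZ was then at 0.50 (adjusted p = 0.0583, edgeR) and IL32 at -0.66 (adjusted p = 0.0621, edgeR), and both missed the threshold. Without T3 24 h replicate 2, 0 rose and 4 fell, and without T3 6 h replicate 1, 2 rose and 5 fell. ICAM1, IL32, MAP3K14 and TNIP1 fell with each of the 8 libraries left out. At 6 h the same medians were 0.31 and -0.31. There the 8 genes that fell had a median GC content of 57.9%, against 48.9% over all annotated genes. The 23 of the 33 that missed the threshold at 6 h had a median of 56.0%, and the 2 that rose lay at 39.5% and 49.9%. CXCL8, at 35.9%, was lower in GC than the rest of the 33 genes and fell.

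**Figure D4:**
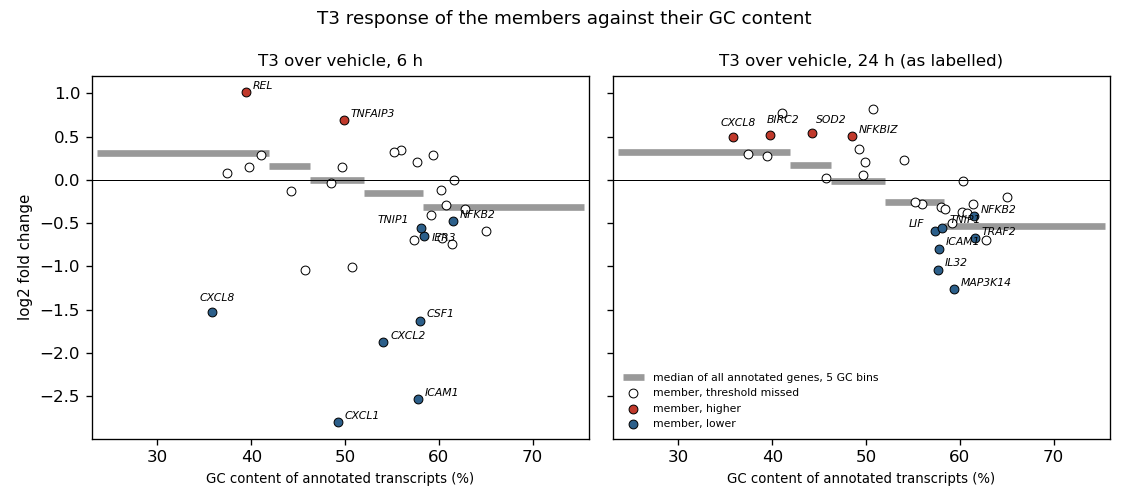
Log2 fold change of T3 over vehicle at 6 h (left) and 24 h (right, as labelled) against the GC content of annotated transcripts in percent, for 31 of the 33 genes tested; grey bars are the medians of all annotated genes in 5 bins of GC content. At 24 h the red points lie at 35.9% to 48.5% GC and the blue points at 57.4% to 61.6%, whereas CXCL8 at 6 h lies at -1.53 with 35.9% GC.

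The T3 response differed between the times for 4 of the 33 genes, by a test of the difference itself in the same fit. CXCL2 and CXCL8 had a higher response at 24 h than at 6 h, which is 6.06% of those tested, against 0.849% of all genes. The log2 difference of the responses was 2.10 for CXCL2 (SE 0.43, adjusted p = 0.0170, edgeR) and 2.02 for CXCL8 (SE 0.26, adjusted p = 0.000615, edgeR). IL32 and MAP3K14 had a lower response at 24 h than at 6 h, also 6.06%, against 0.992% of all genes. Their log2 differences were -1.25 for IL32 (SE 0.25, adjusted p = 0.0167, edgeR) and -1.55 for MAP3K14 (SE 0.27, adjusted p = 0.00562, edgeR). At 6 h neither gene had passed: MAP3K14 was at 46.0 and 45.9 CPM in T3 and 41.6 and 33.1 CPM in vehicle. IL32 was at 76.4 and 66.6 CPM in T3 at 6 h and 66.3 and 56.5 CPM in vehicle at 6 h. The difference for CXCL8 passed under every alternative run, while those for CXCL2 and IL32 missed the threshold without either T3 library of 6 h or without vehicle 6 h replicate 2. That for MAP3K14 missed it without T3 6 h replicate 2, and without vehicle 24 h replicate 1 the counts were 4 higher and 4 lower. The sign of the 24 h part of each difference is that of the labels, which KLF9 and HR went against, so the directions of all 4 differences hold only for the libraries as labelled.

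More of these genes differed between the times than between the treatments. In T3, 19 of the 33 genes were higher at 24 h than at 6 h (57.6%, against 35.1% of all genes) and 8 lower (24.2%, against 35.2% of all genes). In vehicle, 20 were higher at 24 h than at 6 h (60.6%, against 31.9% of all genes) and 7 lower (21.2%, against 32.6% of all genes). The median log2 difference in T3 was 0.78, against 0.02 over all genes, and in vehicle 0.74, against 0.03 over all genes. The genes counted as higher include CCL2, CXCL3 and CSF2, which passed the filter on low counts only through 24 h libraries. Their direction with time was set by that filter, and 30 genes were tested with the 6 h libraries alone. Time cannot be told apart from any batch that the libraries of 1 time share.

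All 5 chemokines tested were higher at 24 h than at 6 h in both treatments. CXCL3 and CCL2 passed the filter on low counts only through 24 h libraries, so their direction with time was set by the filter. In vehicle, CXCL8 was at 250 and 245 CPM at 24 h, against 17.2 and 23.3 CPM at 6 h (log2 fold change 3.63, adjusted p = 7.75e-12, edgeR). Per kilobase of exon it was the most abundant of the 40 genes at 24 h, at a mean of 153 CPM per kb in T3 and 109 CPM per kb in vehicle. CCL2 was at 8.37 and 5.90 CPM in T3 at 24 h, against 2 counts over both libraries of T3 at 6 h, a ratio of pooled levels of 26.9 (95% counting interval 7.26 to 225). It was at 7.91 and 10.2 CPM in vehicle at 24 h, against 1 count over both libraries of vehicle at 6 h, a ratio of 53.4 (95% counting interval 9.37 to 2130).

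The cytokines divided. In vehicle, IL6 was at 80.0 and 105 CPM at 24 h, against 9.04 and 9.82 CPM at 6 h (log2 fold change 3.30, adjusted p = 9.62e-10, edgeR). CSF2, the growth factor of granulocytes and macrophages, was at 7.68 and 6.88 CPM in vehicle at 24 h, against 1.21 and 0 CPM at 6 h (adjusted p = 0.000838, edgeR). IL11, LIF and CSF1 were also higher at 24 h, so 5 of 7 rose in both treatments. CSF2 passed the filter on low counts only through 24 h libraries, so its direction with time was set by the filter. IL18, a cytokine of the IL1 family, went the other way by the largest difference of any of the 33 genes. In T3 it was at 1.24 and 3.12 CPM at 24 h, against 145 and 124 CPM at 6 h. In vehicle it was at 0.452 and 1.94 CPM at 24 h, against 112 and 108 CPM at 6 h (log2 fold change -6.33, adjusted p = 9.38e-11, edgeR).

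Apart from CCL2, ICAM1 had the largest rise in vehicle, at 104 and 125 CPM at 24 h against 7.84 and 5.73 CPM at 6 h (log2 fold change 4.05, adjusted p = 2.15e-10, edgeR). TNFAIP3 was lower at 24 h, at 37.7 and 45.1 CPM in vehicle at 24 h, against 112 and 111 CPM at 6 h (log2 fold change -1.41, adjusted p = 2.04e-07, edgeR). TRAF2 was at 37.5 and 29.6 CPM in vehicle at 24 h, against 98.6 and 92.9 CPM at 6 h (log2 fold change -1.52, adjusted p = 3.36e-07, edgeR), and its log2 fold change was -0.55 with the GC and length correction. NFKBIA was higher, at 109 and 120 CPM in vehicle at 24 h, against 90.7 and 82.7 CPM at 6 h (log2 fold change 0.39, adjusted p = 0.0149, edgeR). The 12 feedback genes and kinases thus split in vehicle, with 4 higher and 4 lower at 24 h.

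BIRC3, the ligase cIAP2, was at 73.4 and 96.4 CPM in vehicle at 24 h, against 148 and 189 CPM at 6 h (log2 fold change -0.98, adjusted p = 2.63e-05, edgeR). RELB was at 35.3 and 29.6 CPM in vehicle at 24 h, against 63.9 and 55.7 CPM at 6 h (log2 fold change -0.89, adjusted p = 0.000561, edgeR). RELB is rich in GC, and with the GC and length trends removed its direction turned (log2 fold change 0.52, adjusted p = 0.0184, edgeR). NFKBIB, an IkB inhibitor, turned as well, at -0.75 before the correction and 0.54 after it, without passing in the second (adjusted p = 0.0547, edgeR). With the correction, 24 of the 33 genes were higher and 6 lower at 24 h in T3, and 25 higher and 4 lower in vehicle. Under the same correction, 32.6% of all annotated genes were higher and 34.5% lower in T3, and 29% higher and 31.4% lower in vehicle.

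**Figure D5:**
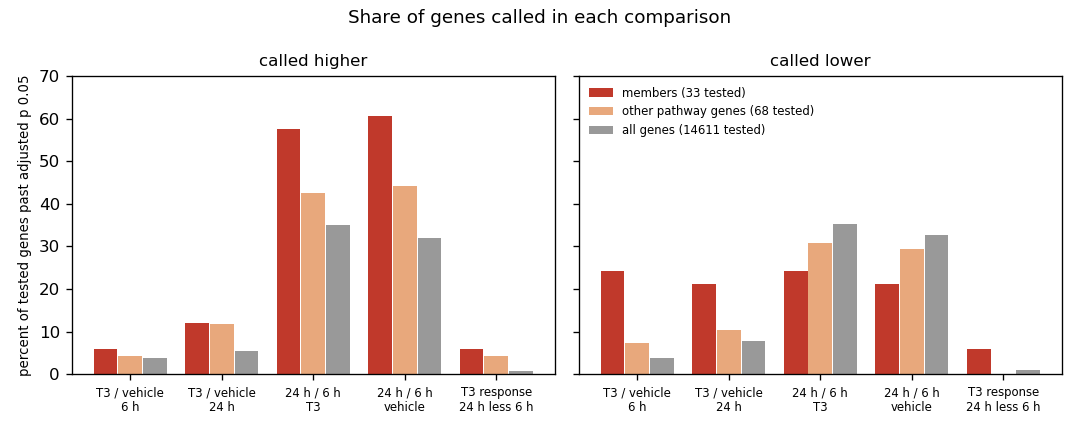
Percent of tested genes past an adjusted p of 0.05 that were higher (left) or lower (right) in each comparison, for the 33 NF-kB and cytokine genes, 68 other genes of the pathway and all 14611 genes. At 6 h, 24.2% of the 33 genes were lower in T3, against 3.86% of all genes. In vehicle 60.6% were higher at 24 h than at 6 h, against 31.9% of all genes. That share includes CCL2, CXCL3 and CSF2, which passed the filter on low counts only through 24 h libraries.

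The 7 untested genes stayed near the counting floor. CXCL6, a neutrophil chemokine near CXCL1 on chromosome 4, had 16 and 0 counts in the 2 libraries of T3 at 24 h, so 1 library carried its whole signal in that group. CXCL5, CCL20 and IL1B had no count in any 6 h library and reached at most 0.810, 0.775 and 0.810 CPM at 24 h. PTGS2, the inducible cyclooxygenase, was between 0.299 and 2.05 CPM in all 8 libraries. IL1A and CX3CL1 reached at most 0.818 and 0.724 CPM.

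A further 91 genes of the pathway (ligands, receptors, adaptors, inhibitors and targets) were counted in the same way, and 68 were tested. At 6 h, 3 rose with T3 (4.41%) and 5 fell (7.35%), against 3.78% and 3.86% of all genes. IL1RAP, a co-receptor for IL1 family cytokines, was at 50.7 and 53.7 CPM in T3 at 6 h, against 13.9 and 22.1 CPM in vehicle at 6 h (log2 fold change 1.57, adjusted p = 0.00353, edgeR). LIFR, the LIF receptor, and TBK1, a kinase related to IKBKE, rose by 0.53 and 0.58 on the log2 scale. CEBPB, a transcription factor of inflammatory genes, was at 58.6 and 68.6 CPM in T3 at 6 h, against 150 and 137 CPM in vehicle at 6 h (log2 fold change -1.17, adjusted p = 0.00181, edgeR). C3, the central complement component, PLAU, the urokinase protease, and CD40, a receptor that signals to NF-kB, had log2 fold changes of -0.56, -1.75 and -2.50. The fifth that fell was PTX3.

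At 24 h, 8 of the 68 were higher in the libraries labelled T3 (11.8%) and 7 lower (10.3%), against 5.58% and 7.75% of all genes. PTX3, a secreted pattern-recognition protein, was at 109 and 114 CPM in T3 at 24 h, against 69.8 and 56.4 CPM in vehicle at 24 h. At 6 h it was at 1.81 and 1.01 CPM in T3 and 3.92 and 7.37 CPM in vehicle. Its response differed between the times (log2 difference 2.87, SE 0.51, adjusted p = 0.00656, edgeR), as did those of IL15 (1.75, adjusted p = 0.0235, edgeR) and CEBPB (1.13, adjusted p = 0.0353, edgeR). CHUK, a catalytic subunit of the IkB kinase, BCL10 and IL15 also rose at 24 h, by 0.54, 0.66 and 0.99 on the log2 scale. TGFB1, LTBR, SHARPIN and C3 had log2 fold changes of -1.18, -0.80, -1.11 and -0.47. LTBR is a receptor of the alternative pathway and SHARPIN a part of the linear ubiquitin ligase. The calls of the 68 genes, at either time, were not followed under the GC and length correction or with a library left out. Under that correction 0.468% of all annotated genes rose and 0.571% fell at 24 h. The counts of kept and lost calls given below are for genes of the 33.

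Some of the 40 genes overlap another annotated gene, and the sources used here do not give the strand setting of the counting. Reads of IL6 and STEAP1B, LIF and LIF-AS1, MAP3K14 and MAP3K14-AS1, IER3 and IER3-AS1, NFKBIB and SIRT2, and SOD2 and WTAP may therefore not have been told apart.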

How the data were processed

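Total RNA of 8 Nthy-ORI libraries was measured, 2 in each of 4 groups set by the titles. The authors deposited raw read counts per gene symbol, with no normalisation or pooling and 1 table for each library. The submitters' processing notes name CASAVA 1.7, STAR 2.7, HTSeq, DESeq2 and build hg38. The annotation and strand setting were not given in the sources used. The 5 summary rows of each table stayed out of library sizes and tests. Counted reads in genes were 12.9% to 24.4% of each table's reads.

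The test used was that of edgeR 4.0.16 under R 4.3.3 (TMM, filterByExpr by group, robust quasi-likelihood F test, 1 coefficient per group over all 8 libraries, 4 residual degrees of freedom). P-values were adjusted over all 14611 genes by the Benjamini-Hochberg method with a threshold of 0.05. The biological coefficient of variation was 13.1%. The 2 libraries of a group did not agree equally well. Chi-square per degree of freedom between them was 27.8 in vehicle at 24 h and 7.2 in T3 at 24 h. It was 4.1 in vehicle at 6 h and 2.7 in T3 at 6 h, and it also grows with depth. The fit shares 1 spread per gene over all groups, and the part of this unevenness in the results was not tested. Counting intervals are exact at 95%, and intervals and floors cover counting error only. No libraries were duplicates. Alternatives were RLE size factors, DESeq2 1.42.0, no filter, only the libraries compared, a replicate block, a lowess correction for GC content and exon length (12600 annotated genes, GENCODE 29, all 40 members annotated), and each library left out. Genes were named by rule: all that passed in a T3 comparison, the 5 largest rises and falls with time in vehicle, and up to 4 pathway genes per direction and T3 comparison by smallest p. The members and lists were chosen with earlier results of these data known. Protein sequences were not used here.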

Additional observations from a re-analysis of the deposited data

Results flagged for a closer look

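The T3 response of 4 genes differed between 24 h and 6 h by the interaction test of edgeR. The log2 difference (24 h less 6 h) was 2.10 for CXCL2, 2.02 for CXCL8, -1.25 for IL32 and -1.55 for MAP3K14. CXCL8 was lower in T3 at 6 h and higher in the libraries labelled T3 at 24 h, by log2 fold changes of -1.53 and 0.49. The 24 h rise was lost with the GC and length correction (0.03, adjusted p = 0.923, edgeR) and without T3 24 h replicate 2 (adjusted p = 0.0966, edgeR), while the 6 h fall passed under every alternative run. CXCL8 was the 1 of the 4 whose difference between the times passed under every alternative run. Without either T3 library of 6 h or without vehicle 6 h replicate 2, CXCL2 and IL32 missed the threshold, and MAP3K14 missed it without T3 6 h replicate 2.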

How the results depend on the processing

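Over the alternatives, the log2 fold changes of the genes named for T3 kept direction and side of the threshold in 263 cases, kept direction but missed the threshold in 82, and turned in 1: NFKB2 at 24 h with the GC and length correction (0.093, adjusted p = 0.699, edgeR). With that correction, 1 gene was higher and 4 lower in T3 at 6 h, 0 higher and 1 lower at 24 h, and 4 lower with time in vehicle. With only the 4 libraries compared, 4 were lower in T3 at 24 h. With 1 library left out, genes higher and lower in T3 numbered 0 to 2 and 1 to 10 at 6 h, and 0 to 5 and 4 to 8 at 24 h. The difference of responses gave 1 to 4 higher and 0 to 4 lower. Without T3 24 h replicate 2, 0 genes were higher and 4 were lower at 24 h. Without T3 6 h replicate 1, 2 were higher at 24 h. The share of all genes called also changed when 1 library was left out. The other counts stayed within 1.5 times.

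Same-numbered libraries did not deviate together (r = -0.00362 at 6 h and -0.0437 at 24 h over 14611 genes). Counting noise enters this r, so it cannot show whether they were cultured or prepared together. With a replicate block, 2 genes were higher and 8 lower at 6 h, 4 higher and 6 lower at 24 h, 18 and 7 with time in T3, 17 and 7 in vehicle, and 3 and 2 in the difference. Low counts limit CXCL1, ICAM1, CCL2 and CSF2 at 6 h.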
